A study of Rattus norvegicus with 18 samples.

Results

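Voltage-gated calcium channels were followed through 10 genes in rat cortical cultures, namely the pore genes Cacna1a, Cacna1b, Cacna1c, Cacna1d, Cacna1e, Cacna1g and Cacna1h, and the auxiliary subunit genes Cacna2d1, Cacna2d3 and Cacnb4. They were taken by name from the 31463 rows of each count file, every one was found, and all 10 were among the 14398 genes that passed the filter on low counts. The 18 libraries came from primary neuroglial cultures of newborn Wistar rat cortex, which mix neurons and glia, used on day 10 in vitro, with RNA taken 4 h after the glutamate model and 3 libraries in each of 6 groups. Control cultures received no glutamate. Glutamate cultures were exposed to 100 µM glutamate. The Memantine group is labelled by the drug alone, and the design text places it in the glutamate model with 100 µM of this blocker of NMDA-type glutamate receptors. The Glutamate_vesicles, Glutamate_secret and Glutamate_BPC groups received glutamate after extracellular vesicles or other secreted preparations of human glial progenitor cells, which were derived from induced pluripotent stem cells and were given the day before. One of Glutamate_secret and Glutamate_BPC was a protein fraction and the other the whole secretome, and the labels do not tell them apart. The methods speak of repeats on unrelated cultures for the experiments in general, and neither they nor the labels tie the 3 libraries of a group to separate cultures, so p-values measure the spread between these libraries, which may in part be technical.

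These channels open when the membrane is depolarised and let calcium enter the cell. Each has a pore-forming alpha-1 subunit, which sets the channel type, and most also carry a cytoplasmic beta subunit and an extracellular alpha-2-delta subunit, which help the pore reach the surface and set its gating. In cortical neurons the P/Q-type and N-type pores trigger transmitter release, the T-type pores open near rest and shape bursts, and the L-type pores carry calcium signals from the cell body and dendrites to the nucleus.

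Levels are given in CPM, the usual scaling of counts to library size, with trimmed-mean (TMM) factors, in the order of replicate numbers 1, 2 and 3. The values carry no correction for transcript length, and levels of different genes were not compared. The shallowest library was Control 1 with 8409565 counts and the deepest Glutamate_vesicles 2 with 17206342. The TMM factors, which multiply these totals in the scaling, spread further, from 0.417 in Control 1 to 1.58 in Memantine 2. Number 2 had the highest factor in every group but Control, and the part of the factors in patterns by replicate number was not tested. Control 1 also held the highest share of ribosomal RNA, 43.0% of its counts, against 3.04% to 26.6% in the other libraries. Neurons were represented in every library, and the summed level of 8 neuronal markers (Tubb3, Map2, Rbfox3, Snap25, Syt1, Stmn2, Nefl and Slc17a7) was 1967 to 2682 CPM in Control and 544 to 1067 CPM in Glutamate. Glial RNA was present as well, with 2866 to 6159 CPM over 6 astrocyte markers in Control and 5395 to 11125 CPM in Glutamate, and 30.6 to 67.9 against 69.8 to 210 CPM over 7 microglial markers. Over 7 markers of the oligodendrocyte lineage, the sum was 374 to 665 CPM in Control, 735 to 974 in Glutamate and 880 to 1397 in Glutamate_vesicles. The Control and Glutamate ranges overlapped for the astrocyte sum and not for the neuronal, microglial and oligodendrocyte sums. Markers of fibroblasts and mural cells summed to at most 19.5 CPM, and endothelial markers to at most 3.52 CPM, in any library. Memantine 3 stood apart from the other Memantine libraries, with 607 CPM of neuronal markers against 3122 and 2136 CPM. In bulk RNA such as this, fewer neurons and less channel RNA per neuron cannot be told apart.

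The promoters of Cacna2d3 and Cacna1c are shown as examples. Cacna2d3 was taken because its difference between Glutamate and Control had the smallest p of the 10 genes. Cacna1c was taken because its fitted difference was closest to 0, though this value changed sign when some single libraries were left out. RefSeq promoters of assembly GRCr8 were at hand for 7 of the 10 genes, and the 250 bases before the start are printed 5′ to 3′ on the strand of the gene. The Cacna2d3 window lies at chr16:4918900-4919149 on the minus strand and the Cacna1c window at chr4:154051749-154051998 on the minus strand, and capitals mark the GC box GGGCGG on either strand.
Cacna2d3: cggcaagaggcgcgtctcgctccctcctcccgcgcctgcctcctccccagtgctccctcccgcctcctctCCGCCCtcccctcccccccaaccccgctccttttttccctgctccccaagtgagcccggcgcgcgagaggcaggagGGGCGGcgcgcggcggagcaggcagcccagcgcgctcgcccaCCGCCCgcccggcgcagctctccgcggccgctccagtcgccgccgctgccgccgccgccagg
Cacna1c: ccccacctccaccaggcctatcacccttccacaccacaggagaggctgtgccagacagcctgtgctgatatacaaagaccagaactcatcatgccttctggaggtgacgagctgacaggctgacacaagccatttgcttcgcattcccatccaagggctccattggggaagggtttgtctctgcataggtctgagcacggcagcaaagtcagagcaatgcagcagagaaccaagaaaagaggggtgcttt
The Cacna2d3 window held 3 GC boxes and 78.8% G and C, whereas the Cacna1c window held 0 GC boxes and 54.4%, beside a median of 51.2% over all promoters. The 7 genes had 9 promoter windows, and 7 of these 9, in Cacna1a, Cacna1b, Cacna1d, Cacna2d1 and Cacna2d3, held a GC box, beside 30.5% of 33469 promoter windows in all. By gene this was 5 of 7, as Cacna2d1 had several windows, some of which overlap. The windows of these genes held from 51.2% (Cacna1e) to 88.8% (Cacna1d) G and C. On either strand, 0 of the 9 held the cAMP response element TGACGTCA, which 1.59% of promoters held, the AP-1 motif TGANTCA, which 6.34% held, or TATAAA, which 12.9% held. No searched motif contains another, and a match describes the sequence only.

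Across the 6 groups, the channel genes other than Cacna1c were highest in Control and Memantine. The highest group means were those of Control and Memantine for 9 of the 10 genes, in either order, and for Cacna1c they were those of Glutamate and Glutamate_secret. In 1 test over all 6 groups, 0 of the 10 genes passed an adjusted p of 0.05 (quasi-likelihood F test of edgeR with Benjamini-Hochberg adjustment), beside 0.00695% of all genes. Before adjustment, a p under 0.05 was reached by 3 of 10 channel genes, beside 1116 of 14398 genes. These were Cacna2d3 (adjusted p = 0.144), Cacna1g (adjusted p = 0.208) and Cacna2d1 (adjusted p = 0.448). The edgeR likelihood-ratio test and DESeq2 each called 3 of the 10, beside 4.08% and 4.98% of all genes.

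**Figure D1:**
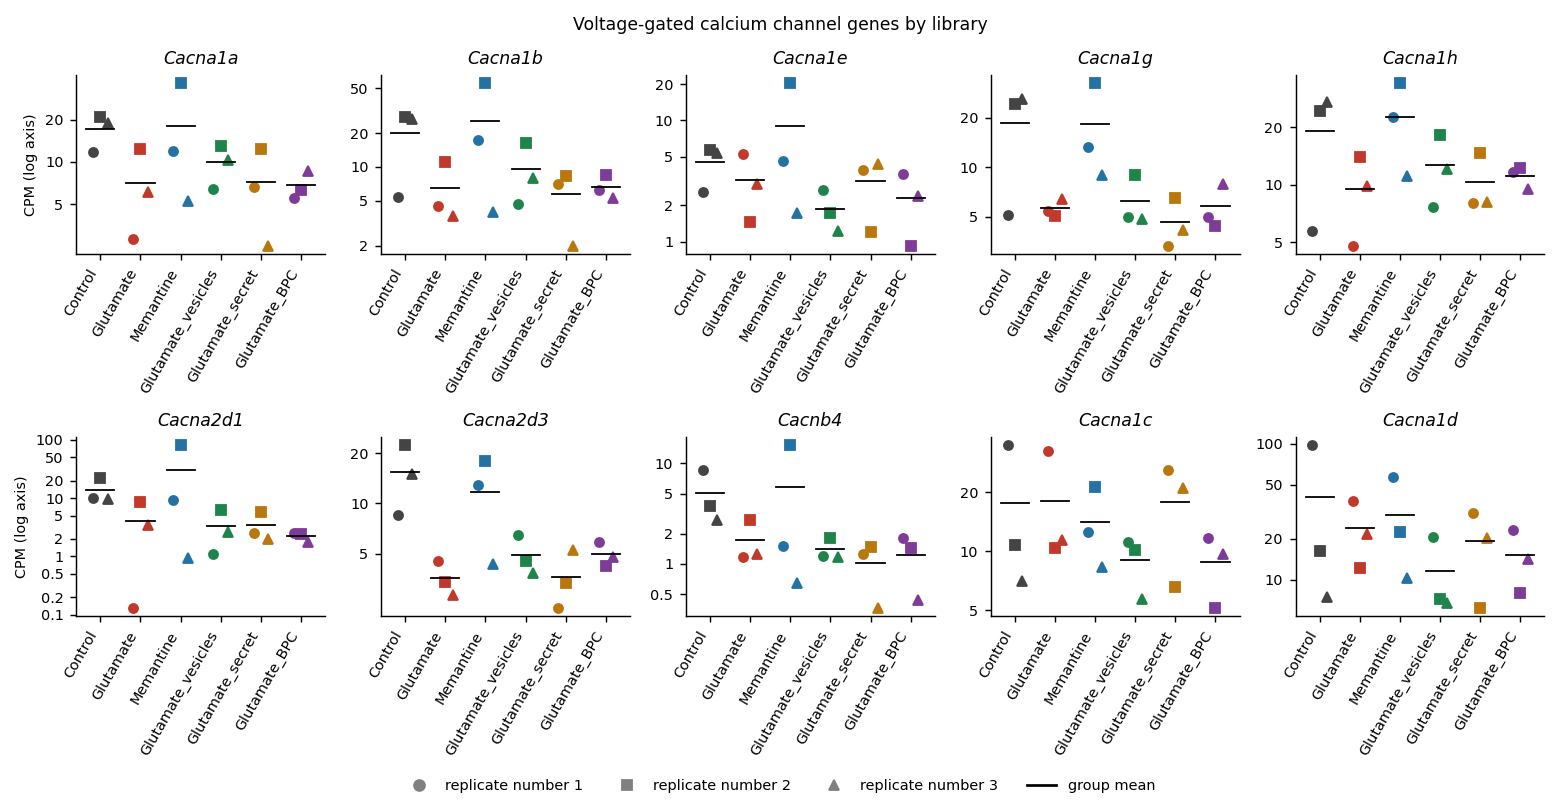
CPM of each channel gene on a log axis in the 6 groups, with 1 point per library, its shape giving the replicate number, and a line at the group mean. Memantine 2 is the highest library for 7 of the 10 genes, reaching 82.1 CPM for Cacna2d1, and Memantine 3 lies among the glutamate-treated libraries for most genes.

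For the T-type pore genes, Control 2 and Control 3 lay above every Glutamate library, and Control 1 did not. Cacna1g had 5.14, 24.3 and 26.1 CPM in Control, 5.42, 5.02 and 6.42 in Glutamate, 13.2, 32.7 and 8.98 in Memantine, 4.98, 8.95 and 4.81 in Glutamate_vesicles, 3.31, 6.50 and 4.16 in Glutamate_secret, and 4.98, 4.38 and 7.92 in Glutamate_BPC. Control 1 was thus as low as the Glutamate libraries, while all 3 Memantine libraries lay above all 3 Glutamate libraries. Cacna1h, the other T-type pore measured here, had 5.71, 24.1 and 27.0 CPM in Control, 4.78, 14.0 and 9.83 in Glutamate, 22.7, 34.1 and 11.1 in Memantine, 7.68, 18.2 and 12.1 in Glutamate_vesicles, 8.03, 14.6 and 8.15 in Glutamate_secret, and 11.6, 12.3 and 9.44 in Glutamate_BPC. The Control and Glutamate ranges of Cacna1h overlapped.

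The N-type, P/Q-type and R-type pore genes had their highest means in Memantine and then Control, with wide spread. Cacna1b, the N-type pore, had 5.42, 27.8 and 26.7 CPM in Control, 4.52, 11.1 and 3.70 in Glutamate, 17.5, 55.9 and 3.95 in Memantine, 4.69, 16.2 and 7.92 in Glutamate_vesicles, 7.09, 8.32 and 1.99 in Glutamate_secret, and 6.25, 8.42 and 5.32 in Glutamate_BPC. Number 2 was the highest library of Cacna1b in 6 of 6 groups. Cacna1a, the P/Q-type pore, had 11.7, 20.9 and 19.0 CPM in Control, 2.84, 12.4 and 6.13 in Glutamate, 12.03, 36.6 and 5.32 in Memantine, 6.48, 13.0 and 10.4 in Glutamate_vesicles, 6.62, 12.3 and 2.53 in Glutamate_secret, and 5.52, 6.34 and 8.57 in Glutamate_BPC. Its Control range overlapped that of Glutamate but lay wholly above that of Glutamate_BPC. Cacna1e, the R-type pore, had 2.57, 5.74 and 5.44 CPM in Control, 5.30, 1.46 and 3.02 in Glutamate, 4.62, 20.5 and 1.72 in Memantine, 2.69, 1.73 and 1.22 in Glutamate_vesicles, 3.94, 1.19 and 4.34 in Glutamate_secret, and 3.62, 0.922 and 2.39 in Glutamate_BPC. Memantine 2 set the Memantine mean of Cacna1e, and the other libraries overlapped between groups.

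Of the L-type pore genes, Cacna1c departed from this order of group means, and both genes varied widely between the libraries of a group. Cacna1c had 34.8, 10.8 and 7.05 CPM in Control, 32.4, 10.3 and 11.4 in Glutamate, 12.6, 21.3 and 8.34 in Memantine, 11.2, 10.2 and 5.69 in Glutamate_vesicles, 25.8, 6.59 and 21.0 in Glutamate_secret, and 11.7, 5.13 and 9.65 in Glutamate_BPC. Cacna1d had 97.9, 16.2 and 7.49 CPM in Control, 37.7, 12.2 and 21.6 in Glutamate, 56.6, 22.3 and 10.3 in Memantine, 20.6, 7.18 and 6.71 in Glutamate_vesicles, 31.0, 6.19 and 20.3 in Glutamate_secret, and 23.3, 8.01 and 14.3 in Glutamate_BPC. Number 1 held the highest library of Cacna1c in 5 of 6 groups and of Cacna1d in 6 of 6. Across the 18 libraries Cacna1c and Cacna1d had a Pearson r of 0.83 with each other and of -0.38 to -0.43 with Cacna1h on the log2 CPM scale, as a description over libraries that share groups and numbers. With the log2 share of ribosomal RNA, r was 0.59 for Cacna1c and 0.73 for Cacna1d, and -0.72 for Cacna1h and -0.65 for Cacna1b, and the part of this share in the pattern was not tested.

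**Figure D2:**
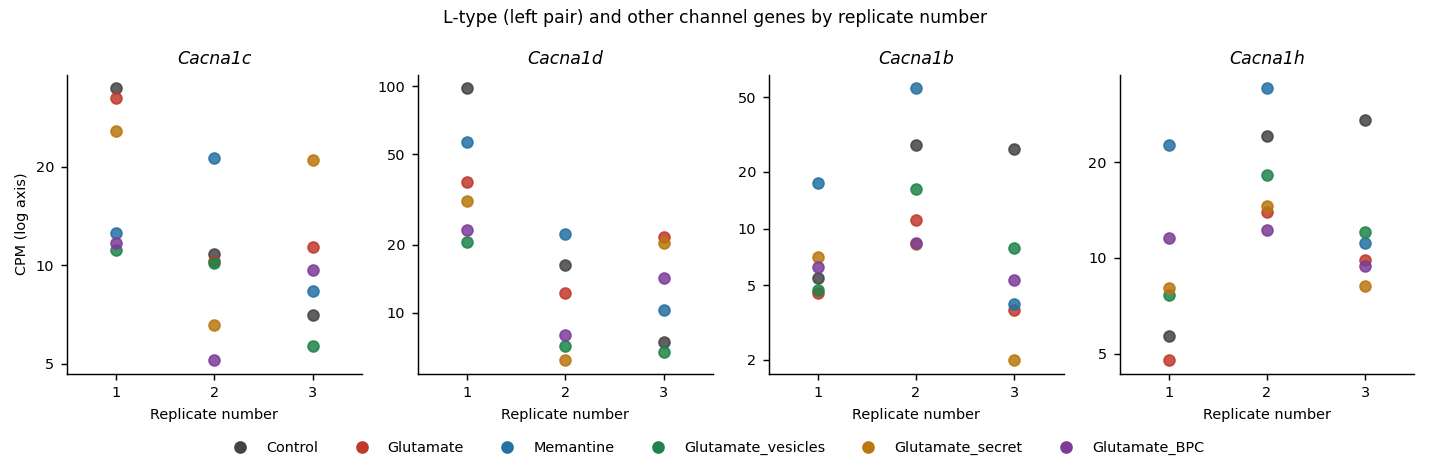
CPM on a log axis of the L-type pores Cacna1c and Cacna1d and of Cacna1b and Cacna1h by replicate number, with 1 point per library coloured by group. Cacna1d is highest in number 1 in 6 of 6 groups and Cacna1b in number 2 in 6 of 6 groups.

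Among the auxiliary subunits, the alpha-2-delta genes Cacna2d1 and Cacna2d3 were lower in Glutamate than in Control without overlap, as were 7.76% of all genes. Another alpha-2-delta gene outside the 10, Cacna2d2, overlapped, with 2.28 to 9.96 CPM in Control and 1.42 to 6.92 CPM in Glutamate. Cacna2d3 had 8.57, 22.4 and 15.1 CPM in Control, 4.52, 3.36 and 2.82 in Glutamate, 12.9, 18.002 and 4.31 in Memantine, 6.48, 4.49 and 3.84 in Glutamate_vesicles, 2.36, 3.32 and 5.25 in Glutamate_secret, and 5.89, 4.21 and 4.77 in Glutamate_BPC. Every Control library lay above every library of Glutamate and of the groups given a glial preparation, and Memantine 3 lay within their range. Cacna2d1, the subunit that binds gabapentin, had 9.99, 22.0 and 9.48 CPM in Control, 0.129, 8.44 and 3.502 in Glutamate, 9.13, 82.1 and 0.934 in Memantine, 1.10, 6.34 and 2.58 in Glutamate_vesicles, 2.52, 5.71 and 1.99 in Glutamate_secret, and 2.54, 2.42 and 1.74 in Glutamate_BPC. The value of Glutamate 1 rested on 1 count. Cacnb4, a beta subunit, had 8.57, 3.78 and 2.75 CPM in Control, 1.16, 2.73 and 1.26 in Glutamate, 1.503, 15.3 and 0.647 in Memantine, 1.20, 1.81 and 1.17 in Glutamate_vesicles, 1.26, 1.46 and 0.362 in Glutamate_secret, and 1.81, 1.44 and 0.434 in Glutamate_BPC. Control and Glutamate did not overlap for Cacnb4, though Control 3 and Glutamate 2 nearly met, and the lowest values rest on few counts.

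Glutamate against Control asks how these genes stood during excitotoxic injury. Cacna2d3 and Cacna1g were lower after glutamate by a looser criterion, called the criterion from here on, which asks for a fold above 1.5 and a p under 0.05 before adjustment, and 9 of the 10 log2 fold changes were negative. With the adjusted p, 0 of 10 were called, beside 0% of all genes. The criterion took 2 of 10 channel genes as lower, beside 5.97% of all genes. Cacna2d3 averaged 15.3 ± 6.91 CPM (SD, n = 3) in Control and 3.57 ± 0.868 CPM (SD, n = 3) in Glutamate, a log2 fold change of -2.11 (SE 0.52, with an adjusted p of 0.282 in edgeR). Cacna1g averaged 18.5 ± 11.6 CPM (SD, n = 3) and 5.62 ± 0.723 CPM (SD, n = 3), a log2 fold change of -1.73 (SE 0.59, with an adjusted p of 0.371 in edgeR).

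The remaining 8 genes did not meet the criterion. The log2 fold changes of the next pores were -1.64 (SE 0.84) for Cacna1b, -1.27 (SE 0.69) for Cacna1a and -0.53 (SE 0.81) for Cacna1e. Cacna1h had -1.0005 (SE 0.57), Cacna2d1 -1.76 (SE 1.19) and Cacnb4 -1.50 (SE 0.94). The L-type genes had 0.06 (SE 0.66) for Cacna1c and -0.76 (SE 0.88) for Cacna1d. The sign was not fixed for this pair, since Cacna1d came to 1.00 without Control 1 and Cacna1c to -0.67 without Glutamate 1, -0.32 without Control 3 and -0.20 without Control 2. Without Control 1, the library with the highest share of ribosomal RNA, the criterion took 4 genes, beside 5.72% of all genes.

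The median log2 fold change of the 10 genes was -1.38, and that of all tested genes was 0.08. The Control and Glutamate ranges did not overlap for 3 genes (Cacna2d1, Cacna2d3 and Cacnb4), all lower after glutamate, beside 7.76% of all genes. Within replicate numbers, 6 genes (Cacna1a, Cacna1b, Cacna1h, Cacna2d1, Cacna2d3 and Cacnb4) were lower in Glutamate for all 3 numbers, as were 14.6% of all genes. The median difference of the 10 genes on the log2 CPM scale was -0.58, -1.05 and -1.42 for numbers 1, 2 and 3. Same-numbered libraries of these groups were not taken as pairs, since their deviations from group means correlated at -0.12 for number 3. The matching by number is therefore a description only. Before adjustment, a p under 0.05, without the fold, was reached by 2 of 10 channel genes and 1167 of all genes, and DESeq2 called 1 of the 10, Cacna2d3, beside 1.61% of all genes.

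Memantine against Glutamate asks how these genes stood when NMDA receptors were blocked. Cacna1b, Cacna1g, Cacna1h, Cacna2d1 and Cacna2d3 were higher with memantine by the criterion, 5 of 10 genes beside 4.86% of all genes. With the adjusted p, 0 of 10 were called, beside 0% of all genes, and before adjustment a p under 0.05 was reached by 5 of 10 and 731 of all genes. Cacna2d3 averaged 11.7 ± 6.92 CPM (SD, n = 3) with memantine, a log2 fold change over Glutamate of 1.72 (SE 0.52, with an adjusted p of 0.611 in edgeR). Cacna1g averaged 18.3 ± 12.7 CPM (SD, n = 3), a log2 fold change of 1.70 (SE 0.59, with an adjusted p of 0.621 in edgeR).

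The other 3 had larger errors or smaller differences. The log2 fold change was 1.99 (SE 0.85, with an adjusted p of 0.858 in edgeR) for Cacna1b, 1.24 (SE 0.57, with an adjusted p of 0.960 in edgeR) for Cacna1h and 2.91 (SE 1.23, with an adjusted p of 0.858 in edgeR) for Cacna2d1. Single libraries decided these values. Without Memantine 2 the criterion took 1 gene, beside 3.22% of all genes, and Cacna2d1 came to 0.28, Cacna1b to 0.72 and Cacna1g to 0.98. Without Memantine 3 the criterion took 8 genes, beside 8.49% of all genes. Cacna2d3 was then the only channel gene called, at 2.11 (SE 0.46, with an adjusted p of 0.0361 in edgeR). The share of all genes called by the adjusted p in that fit is not given, so this call cannot be set against all genes.

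The median log2 fold change of the 10 genes was 1.59, beside -0.02 for all tested genes. By replicate number the median difference on the log2 CPM scale was 1.37, 2.34 and -0.32, so that number 3 did not share the direction. Cacna1b, Cacna1g, Cacna1h and Cacna2d3 were higher with memantine in all 3 numbers, as were 15.9% of all genes. The ranges were apart only for Cacna1g among the 10 genes, as they were, with memantine higher, for 1.74% of all genes. Against Control, Memantine gave 0 of 10 genes by the adjusted p, beside 0% of all genes, and 0 at an unadjusted p below 0.05, beside 161 of all genes. The median log2 fold change was then 0.15, and the 95% interval was -1.45 to 0.67 for Cacna2d3 and -1.23 to 1.18 for Cacna1g.

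**Figure D3:**
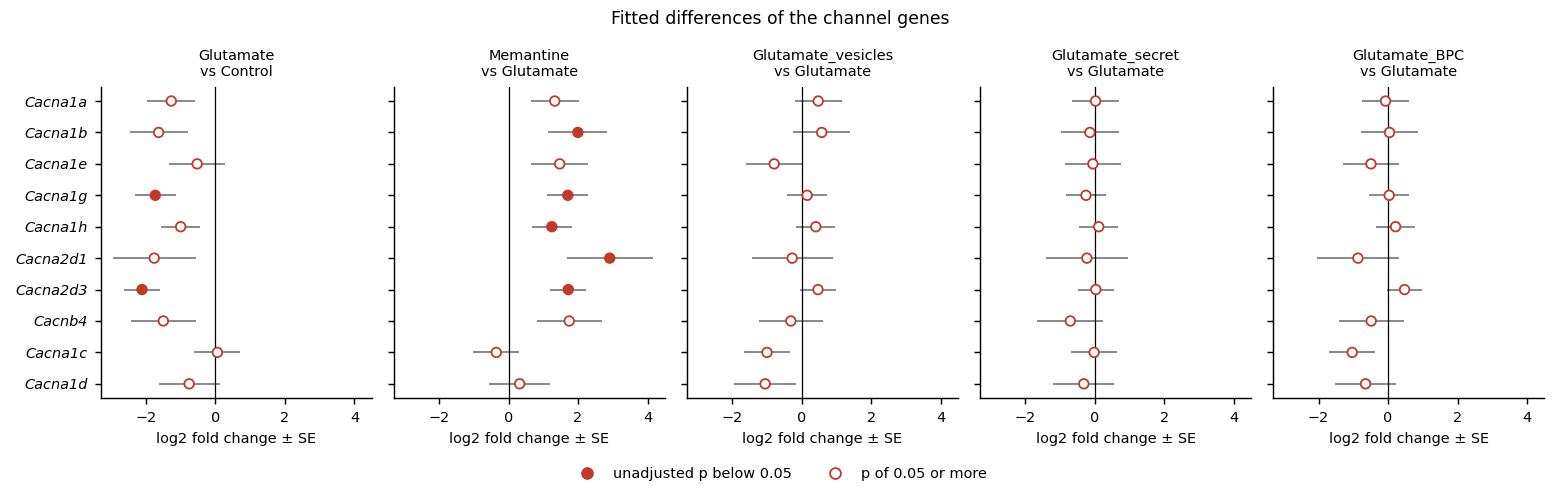
Log2 fold change of each channel gene with bars of 1 SE from the edgeR fit over all 18 libraries, for Glutamate against Control and for the 4 treated groups against Glutamate. Filled points have an unadjusted p below 0.05, which are 2 genes after glutamate, 5 with memantine and 0 with each glial preparation.

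The preparations of glial progenitor cells asked the same of secreted material. Against Glutamate, 0 of 10 channel genes were called by the adjusted p for Glutamate_vesicles, Glutamate_secret or Glutamate_BPC, beside 0% of all genes in each. Before adjustment, a p under 0.05 was reached by 0 of 10 for each, beside 155, 98 and 154 of all genes, and DESeq2 called 0 of 10 for each as well. The median log2 fold changes were -0.06, -0.10 and -0.28. For Cacna2d3 the log2 fold change was 0.47 (95% interval -0.61 to 1.55) with vesicles, 0.03 (-1.07 to 1.12) with Glutamate_secret and 0.47 (-0.61 to 1.56) with Glutamate_BPC. The comparisons with Glutamate, that of memantine included, share the Glutamate libraries. For Cacna1g it was 0.16 (-1.06 to 1.37), -0.26 (-1.49 to 0.97) and 0.03 (-1.19 to 1.26).

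Some genes kept a direction against Glutamate within all 3 replicate numbers, though the fit over all 18 libraries called none and none met the criterion. With vesicles these were Cacna1a, Cacna1b, Cacna1h and Cacna2d3, which were higher, and the L-type genes, which were lower at -0.999 (95% interval -2.41 to 0.41) for Cacna1c and -1.05 (-2.93 to 0.83) for Cacna1d. With Glutamate_secret, Cacna1d was lower in all 3 numbers. With Glutamate_BPC, Cacna1c, Cacna1d and Cacna1e were lower in all 3 numbers and Cacna2d3 was higher. Of all genes, 16.4% were higher and 13.9% lower in all 3 numbers with vesicles, 20.6% and 20.5% with Glutamate_secret, and 12.1% and 14.4% with Glutamate_BPC. With the replicate number as a block, 1 channel gene was lower with vesicles than in Glutamate by the criterion, beside 1.88% of all genes. The check of pairing did not allow the block in that comparison.

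Set against Control, the cultures given a glial preparation had lower Cacna1g and Cacna2d3 by the criterion in every case. For Glutamate_vesicles the criterion took 2 of 10 genes, beside 7.59% of all genes, and 0 were called by the adjusted p, beside 0.0139%. With the replicate number as a block, which the check of pairing allows here, the criterion took 5 of 10 genes, beside 12.1% of all genes. Cacna1g was lower by a log2 fold change of -1.58 (SE 0.58, with an adjusted p of 0.294 in edgeR) and Cacna2d3 by -1.65 (SE 0.51, with an adjusted p of 0.230 in edgeR).

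For Glutamate_secret it took 3 of 10, beside 7.58%, and 0 were called, beside 0%. Cacna2d3 stood at -2.09 (SE 0.53, with an adjusted p of 0.134 in edgeR), Cacna1g at -1.99 (SE 0.59, with an adjusted p of 0.195 in edgeR) and Cacnb4 at -2.21 (SE 0.97, with an adjusted p of 0.386 in edgeR). DESeq2 called Cacna1g and Cacna2d3, beside 3.12% of all genes. For Glutamate_BPC it took 3 of 10, beside 7.4%, and 0 were called, beside 0%. These were Cacna2d3 at -1.64 (SE 0.51, with an adjusted p of 0.300 in edgeR), Cacna1g at -1.70 (SE 0.59, with an adjusted p of 0.305 in edgeR) and Cacna2d1 at -2.63 (SE 1.23, with an adjusted p of 0.438 in edgeR).

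Before adjustment, a p under 0.05 was reached by 2, 3 and 3 channel genes in these comparisons, beside 1670, 1692 and 1632 of all genes. Ranges below Control without overlap were seen for 3 genes with vesicles, 3 with Glutamate_secret and 4 with Glutamate_BPC, beside 9.83%, 9.07% and 12.7% of all genes. Cacna2d1, Cacna2d3 and Cacnb4 were among them each time, and Cacna1a was the fourth with Glutamate_BPC. The comparisons share the Control libraries.

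Glutamate_vesicles against Memantine set the vesicles beside the positive control. Cacnb4, Cacna1e, Cacna1g, Cacna2d1 and Cacna2d3 were lower with vesicles by the criterion, 5 of 10 genes beside 5.94% of all genes. With the adjusted p, 0 were called, beside 0%, and before adjustment a p under 0.05 was reached by 5 of 10 and 1039 of all genes. Cacna1g differed by a log2 fold change of -1.55 (SE 0.58, with an adjusted p of 0.548 in edgeR), Cacna1e -2.26 (SE 0.83, with an adjusted p of 0.521 in edgeR) and Cacna2d3 -1.25 (SE 0.51, with an adjusted p of 0.580 in edgeR). Cacna2d1 had -3.19 (SE 1.25, with an adjusted p of 0.559 in edgeR) and Cacnb4 -2.06 (SE 0.94, with an adjusted p of 0.650 in edgeR). All rested on Memantine 2, without which the criterion took 0 genes and Cacnb4 turned to 0.39.

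The libraries with the highest summed level of the channel genes were also those with the highest neuronal markers. The summed level of the 10 genes was 190, 178 and 146 CPM in Control, 98.8, 81.0 and 69.7 in Glutamate, 163, 339 and 55.6 in Memantine, 67.1, 88.1 and 56.3 in Glutamate_vesicles, 92.0, 66.2 and 70.1 in Glutamate_secret, and 77.2, 53.6 and 64.5 in Glutamate_BPC. Neuronal markers summed to 2505, 2682 and 1967 CPM in Control, 1067, 544 and 587 in Glutamate, and 3122, 2136 and 607 in Memantine. They lay at 468 to 995 CPM in the groups given a glial preparation. By the criterion, 5 of the 8 neuronal markers and 3 of 3 markers of inhibitory neurons (Gad1, Gad2 and Slc32a1) were lower after glutamate, beside 5.97% of all genes, with median log2 fold changes of -1.66 and -1.40.

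Per 1000 CPM of neuronal markers, the channel genes held 72.2 ± 5.12 CPM (SD, n = 3) in Control and 120 ± 28.2 (SD, n = 3) in Glutamate. Control ranged from 66.4 to 76.0 and Glutamate from 92.6 to 149, so the channel sum was not lower relative to this marker sum after glutamate. Most of the marker sum came from Stmn2 (means of 1268 CPM in Control and 385 in Glutamate) and Tubb3 (703 and 174). The channel sum averaged 172 and 83.2 CPM. Map2 (52.8 and 50.4) and Rbfox3 (82.2 and 48.3) fell by a smaller factor than the channel sum, and Snap25, Syt1, Nefl and Slc17a7 by a larger one. The ratio therefore depends on the markers taken. Memantine had 101 ± 53.9 (SD, n = 3), Glutamate_vesicles 105.99 ± 25.7 (SD, n = 3), Glutamate_secret 113 ± 25.5 (SD, n = 3) and Glutamate_BPC 88.6 ± 12.6 (SD, n = 3). In Control 1, Cacna1d made 97.9 of the 190 CPM of the sum. The part of neuronal content in the differences of single genes was not tested.

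**Figure D4:**
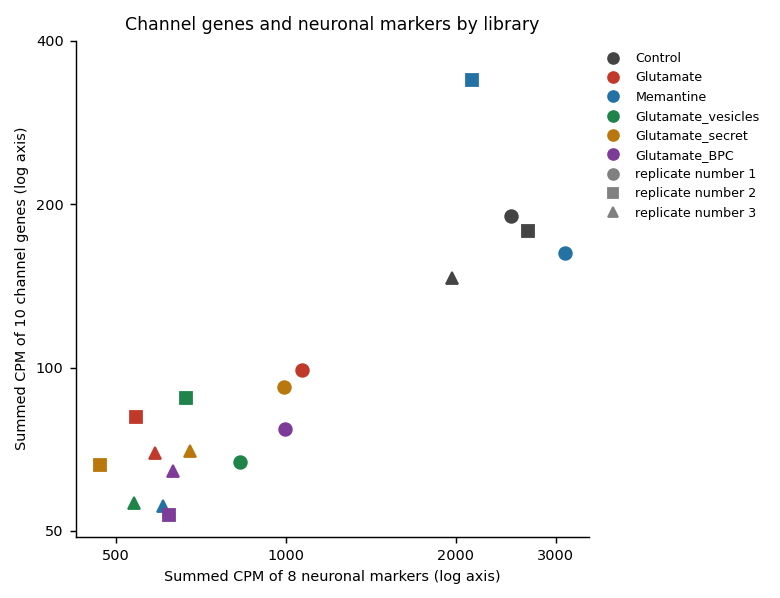
Summed CPM of the 10 channel genes against summed CPM of 8 neuronal markers, both on log axes, with 1 point per library coloured by group and shaped by replicate number. The 3 Control libraries, Memantine 1 and Memantine 2 lie at 1967 to 3122 CPM of neuronal markers, and Memantine 3 lies at 607 among the glutamate-treated libraries.

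Other genes named as subunits of the family were taken from a list of 16 genes, of which 12 passed the filter. Cacng2 to Cacng8 were among the 12, and a name alone does not show which channel or receptor a product serves. After glutamate 5 of the 12 were lower by the criterion and 0 higher, beside 5.97% and 2.1% of all genes. All 12 log2 fold changes were negative, as were 44.0% over all genes, and the median was -1.10. With memantine against Glutamate 5 were higher, beside 4.86%, and 0 lower. Each glial preparation against Glutamate gave 0, and against Control 4 with vesicles, 6 with Glutamate_secret and 5 with Glutamate_BPC were lower, beside 7.59%, 7.58% and 7.4% of all genes. Memantine against Control gave 0, and vesicles against Memantine gave 4 lower, beside 5.94%.

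The genes with the smallest p over the 6 groups were Cacnb1, Cacng3 and Cacna1i. Cacnb1, a beta subunit, had 16.6, 40.4 and 33.0 CPM in Control, 14.3, 10.9 and 13.7 in Glutamate, and 51.8, 42.4 and 15.1 in Memantine (6-group edgeR adjusted p = 0.154). Cacng3, whose product serves AMPA-type glutamate receptors, had 10.6, 17.5 and 13.3 CPM in Control, 5.55, 2.22 and 1.85 in Glutamate, and 19.8, 16.8 and 3.09 in Memantine (6-group edgeR adjusted p = 0.205). Cacna1i, a further T-type pore, had 3.43, 3.78 and 4.69 CPM in Control, 0.387, 0.952 and 0.389 in Glutamate, and 1.40, 11.8 and 0.359 in Memantine (6-group edgeR adjusted p = 0.285). Memantine 3 lay near or within the Glutamate range for all 3.

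Proteins that regulate these channels were taken from a list of 18 genes, of which 15 passed the filter. After glutamate 7 of the 15 were lower by the criterion and 1 higher, beside 5.97% and 2.1% of all genes, and with memantine against Glutamate 7 were higher, beside 4.86%, and 0 lower. Against Glutamate, vesicles gave 1 higher, beside 0.479%, and the other preparations 0. Against Control, 6 were lower and 2 higher with vesicles, 5 lower and 1 higher with Glutamate_secret, 6 lower and 1 higher with Glutamate_BPC, and 2 lower and 1 higher with memantine. The shares of all genes were 7.59% lower and 3.97% higher with vesicles, 7.58% and 4.1% with Glutamate_secret, 7.4% and 3.9% with Glutamate_BPC, and 0.542% and 0.576% with memantine. Vesicles against Memantine gave 8 lower and 1 higher, beside 5.94% and 1.25%.

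Over the 6 groups the smallest p values were those of Akap7, Stac and Akap5. Akap7, which anchors protein kinase A near channels, had 96.2, 62.2 and 53.7 CPM in Control, 27.5, 25.8 and 22.0 in Glutamate, and 29.4, 49.1 and 19.8 in Memantine (6-group edgeR adjusted p = 0.109). Its log2 fold change was -1.49 (SE 0.34) after glutamate, and against Control it was also lower with memantine, at -1.11 (SE 0.33, with an adjusted p of 1.00 in edgeR). Akap5, another anchoring protein, had 37.4, 14.97 and 13.2 CPM in Control, 7.75, 6.41 and 4.38 in Glutamate, and 29.3, 25.8 and 4.74 in Memantine (6-group edgeR adjusted p = 0.144). Stac, an adaptor that binds L-type channels, had 2.00, 3.24 and 1.45 CPM in Control, 1.16, 1.27 and 0.486 in Glutamate, and 23.6, 13.9 and 0.431 in Memantine (6-group edgeR adjusted p = 0.121). Stac was thus highest in Memantine 1 and Memantine 2.

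Gem and Stac2 were named after their values were seen, as the single genes that were higher after glutamate and with vesicles. Gem, a small GTP-binding protein that inhibits these channels, had 0.857, 1.03 and 5.71 CPM in Control and 9.30, 15.4 and 9.73 in Glutamate, a log2 fold change of 2.12 (SE 0.81, with an adjusted p of 0.451 in edgeR). Stac2, an adaptor related to Stac, had 4.65, 5.33 and 6.13 CPM in Glutamate and 11.96, 12.4 and 18.8 with vesicles, a log2 fold change of 1.42 (SE 0.51, with an adjusted p of 1.00 in edgeR). The ranges did not overlap in either case. Of all genes, 4.48% were higher without overlap in Glutamate than in Control, and 2.89% with vesicles than in Glutamate. Both genes were picked for being higher, so the separation adds no support.

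The profiles most like the mean of the 10 genes, each scaled to unit spread over the 18 libraries, were those of Plxna4, Add2, Gas7, Tenm2 and Pgm2l1, among rows with a gene symbol. Pearson's r over 18 libraries was 0.98 for Plxna4 and Add2, 0.97 for Gas7 and Tenm2 and 0.96 for Pgm2l1, and Spearman's rho was 0.96, 0.98, 0.88, 0.96 and 0.79 in the order named. They were picked for a high r, and the libraries share groups, depth and neuronal content.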

How the data were processed

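RNA was sequenced from 18 libraries, 3 in each of 6 groups taken from the labels. The deposited values are expected counts, estimated counts per gene that the authors made by trimming reads with Trimmomatic and Cutadapt, quantifying them with Salmon against Ensembl rat transcripts (rn6) with the genome as decoy, and summing transcripts with tximport. The submitters' processing notes also list STAR, and labels and paper name different sequencing kits. A supplement of the paper describes removal of a day effect before clustering, and the labels used here give no day.

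Counts were rounded to whole numbers, although the design had been written for counts, and tested with edgeR 4.0.16 (R 4.3.3). Genes passing filterByExpr (minimum count 10, minimum total 15) were kept, libraries were scaled by TMM, and 1 mean per group was fitted over all 18 libraries. The quasi-likelihood test was two-sided with Benjamini-Hochberg adjustment over 14398 genes, at 0.05. A looser criterion (unadjusted p below 0.05, fold above 1.5) was counted by direction. The paper's methods name a threshold on the false discovery rate in edgeR's likelihood-ratio test, whereas its results name a p-value and a fold, without stating whether that p was adjusted. SEs come from the F statistic, log2 CPM used a prior count of 2, and means carry the SD. Values that rest on few counts are imprecise, and total counts ranged from 8409565 to 17206342. Scripts were tested on simulated data.

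Named were all 10 channel genes, with fold changes for Glutamate against Control and, elsewhere, where the unadjusted p was below 0.05, up to 3 genes with the smallest 6-group p from each other list, and the 5 profiles most like the mean. The members and lists were chosen with earlier results of these data known.

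Groups share replicate numbers. Deviations from group means of same-numbered libraries correlated above 0.1 for every number in 5 comparisons, namely Memantine, Glutamate_secret and Glutamate_BPC with Glutamate, and Glutamate_vesicles with Control (0.60, 0.50 and 0.21) and with Memantine, where the number was taken as pairing. Alternatives were the likelihood-ratio test, DESeq2 1.42.0, other scalings and filters, ribosomal RNA left out or as a covariate, the replicate block, only the 2 groups compared, and leaving out each library. Counts of overlapping genes can be shared, since the sources used here do not state whether counting used strand. Promoters came from RefSeq (GRCr8), another build than that of the counts.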

Additional observations from a re-analysis of the deposited data

How the results depend on the processing

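Of 448 alternative values for the 28 log2 fold changes of channel genes reported with a test or for Glutamate against Control, 433 kept direction and side of the adjusted threshold, 10 passed it newly and 5 reversed. Of 64 for the 4 fold changes given for Akap7, Gem and Stac2, 62 kept both and 2 passed it newly, Akap7 in Glutamate against Control by DESeq2 and with the replicate block, the set chosen after seeing the data. Against a count of 0 called genes, DESeq2 called 1 in Glutamate against Control, 1 in Glutamate_vesicles against Control, 2 in Glutamate_secret against Control and 3 over the 6 groups, beside 1.61%, 3.44%, 3.12% and 4.98% of all genes. The likelihood-ratio test called 1 in Glutamate_secret against Control and 3 over the 6 groups, beside 1.55% and 4.08%, and the ribosomal RNA covariate called 2 and 1, beside 4.04% and 2.67%. Leaving out 1 library gave 0 to 1 in Memantine against Glutamate, the 1 without Memantine 3, and 0 to 1 over the 6 groups, chosen after seeing the data. The shares of all genes called in these fits are not given.

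By the criterion, Glutamate against Control had 4 with the covariate and 2 to 4 leaving out 1 library, the 4 without Control 1, beside 5.72% of all genes. Memantine against Glutamate had 2 with the covariate, 2 with only the 2 groups, and 1 (without Memantine 2) to 8 (without Memantine 3). The shares of all genes without these libraries were 3.22% and 8.49%. Glutamate_vesicles against Control had 4 by DESeq2, beside 9.27% of all genes, 6 with the covariate, 5 with only the 2 groups and 1 (without Glutamate_vesicles 3) to 2. Glutamate_secret against Control had 6 with the covariate, and Glutamate_BPC against Control 6 with the covariate and 6 with only the 2 groups. Glutamate_vesicles against Memantine had 8 with the covariate, 2 with only the 2 groups, and 0 (without Memantine 2) to 6 leaving out 1 library. Memantine against Control had 0 to 1 lower, the 1 without Memantine 2. With the covariate, 7.82% to 14.7% of all genes met the criterion in these comparisons. Shares are not given for only the 2 groups or for the remaining fits without 1 library. Those counts therefore cannot be set against all genes. The cause was not tested.

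With the replicate block, the criterion took 6 in Glutamate against Control, 6 in Glutamate_secret against Control with 2 called, 6 in Glutamate_BPC against Control, 1 lower in Glutamate_vesicles against Glutamate, and 2 genes were called over the 6 groups. The shares of all genes were 10.6%, 13.6% with 4.86% called, 13.3%, 1.88% and 3.45% in the same order. In these comparisons 1 pair or more fell under the correlation of 0.1 (in Glutamate against Control 0.59, 0.57 and -0.12), so numbers were not taken as pairing. In the paired comparison of Glutamate_vesicles with Control it took 5, beside 12.1%, and the block changed no other call of the channel genes. It moved the median over all genes from 0.08 to -0.03 in Glutamate against Control, 0.10 to -0.05 in Memantine against Control and -0.06 to 0.05 in Glutamate_vesicles against Memantine.

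Leaving out 1 library moved the log2 fold change of Cacna1c in Glutamate against Control from -0.67 (without Glutamate 1) to 1.01 (without Control 1) and that of Cacna1d from -1.25 (without Control 3) to 1.00 (without Control 1). That of Cacnb4 in Glutamate_vesicles against Memantine went from -2.56 (without Memantine 3) to 0.39 (without Memantine 2).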
